A study of Mus musculus with 3 samples.

Results

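The mitochondrial carrier family Slc25 was examined in brown adipose tissue of mice with and without the kinase LKB1. Members were all genes whose RefSeq symbol begins with Slc25a and a digit, measured by probes that were well above background in at least 1 channel on all 3 arrays, with the brightest such probe standing for the gene. Of 48 symbols in the RefSeq table, 37 were measured, among 13129 named genes in all. The 10 genes Slc25a2, Slc25a13, Slc25a18, Slc25a21, Slc25a27, Slc25a31, Slc25a41, Slc25a43, Slc25a53 and Slc25a54 had probes that did not meet the background criterion, and 1 symbol, Slc25a5-ps, had no matched probe. Of the 37 measured genes, 36 met the criterion in both channels, and 1, Slc25a30, met it through the Ad-Lkb1 channel alone.

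The study set Ad-Lkb1 mice, labelled with the strain C57BL/6J, against wild-type (WT) littermates labelled C57BL/6. All animals were males aged 10 weeks on regular chow. Total RNA of the whole tissue was hybridised to 3 two-colour Agilent arrays, each carrying 1 Ad-Lkb1 sample in the dye Cy5 and 1 WT sample in Cy3, so an array is 1 pair of samples. Dye, strain name and genotype cannot be told apart, since every array had the same orientation. The series title names the model as a liver kinase B1 deletion. The promoter or Cre line behind the deletion is not given in the sources used here, and neither is the share of cells that lost the gene.

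Carriers of the Slc25 family sit mostly in the inner mitochondrial membrane and exchange metabolites, nucleotides and cofactors between the matrix and the cytosol. The uncoupling protein UCP1, which lets brown fat mitochondria burn fuel for heat, belongs to the same protein family under another gene name. In fat, the citrate carrier also delivers the carbon from which fatty acids are built in the cytosol.

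Stk11, the gene of LKB1, had a log2 signal of 8.36, 8.46 and 8.38 in Ad-Lkb1 samples 1 to 3, against 9.62, 9.63 and 9.54 in WT samples. It fell in Ad-Lkb1 tissue, with a log2 ratio of -1.20 (moderated SE 0.0687, n = 3 arrays, limma adjusted p = 0.0105). The probe's place relative to the deleted part of the gene is not given in the sources used here. All 8 brown adipocyte markers were well above background in both genotypes. Of these, 5 rose in Ad-Lkb1 tissue at an adjusted p under 0.05 (62.5%, beside 4.78% of all features). The other 3 did not pass: Cox8b had a log2 ratio of 0.38, Ppargc1a 0.39 and Prdm16 -0.33. Ppargc1a ranged from -0.94 on array 1 to 1.98 on array 3. Ucp1 had a log2 signal of 17.03, 16.72 and 16.77 in Ad-Lkb1 samples, against 15.34, 15.34 and 15.42 in WT samples, a log2 ratio of 1.48 (adjusted p = 0.0114).

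Few carriers moved past the threshold. In limma's moderated test against a ratio of 1, adjusted by Benjamini-Hochberg over all 19328 genes and unnamed features with a threshold of 0.05, 2 of the 37 carriers rose in Ad-Lkb1 tissue, 3 fell and 32 did not pass. The 5 calls are 13.5% of the carriers, beside 8.7% of all features and 10.6% of named genes. By direction, 4.78% of all features were called higher and 3.92% lower, and of named genes 5.73% and 4.91%. The carriers that fell were Slc25a1, Slc25a35 and Slc25a48, and those that rose were Slc25a24 and Slc25a25. The calls differed with how the ratios were centred and with which array was left out. With median centring in place of loess, 1 carrier was called higher and 25 lower, and over all features 389 were called higher and 9708 lower, against 923 and 758 with loess. That setting moved the median log2 ratio of all features to -0.42, so directions below are relative to the loess baseline. Without array 1, and likewise without array 2, no carrier and no other feature passed (0 calls by limma). At an unadjusted p under 0.05, 2 carriers were higher and 9 lower without array 1, and 2 were higher and 8 lower without array 2. Without array 3, 7 carriers passed, among them all 5 named above.

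The median log2 ratio of the family was -0.10, beside -0.0099 over all features, and the family median was below 0 on each array (-0.12, -0.13 and -0.065). Ratios ranged from -1.88 for Slc25a1 to 0.93 for Slc25a25, and 2 carriers had an absolute log2 ratio of at least 1, as did 2.79% of all features. The ratio lay below 0 for 24 carriers, beside 52.3% of all features, and above 0 for 13. A ratio below 0 on all 3 arrays was found for 17 carriers (27.7% of all features), a ratio above 0 on all arrays for 8 (24% of all features), and 12 had mixed signs. The levels of 13 carriers, or 35.1%, were lower in every Ad-Lkb1 sample than in any WT sample. This held for 18.7% of all features and 20.7% of named genes. The levels of 6 carriers, or 16.2%, were higher in every Ad-Lkb1 sample, beside 17.8% of all features and 19.4% of named genes. Across the 37 carriers the ratios of arrays 1 and 2 correlated at r = 0.92. The correlation was 0.78 between arrays 1 and 3 and 0.75 between arrays 2 and 3. Over all features the same pairs gave r = 0.73, 0.36 and 0.50. These points share the 3 pairs of samples, and features are not independent replicates.

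**Figure D1:**
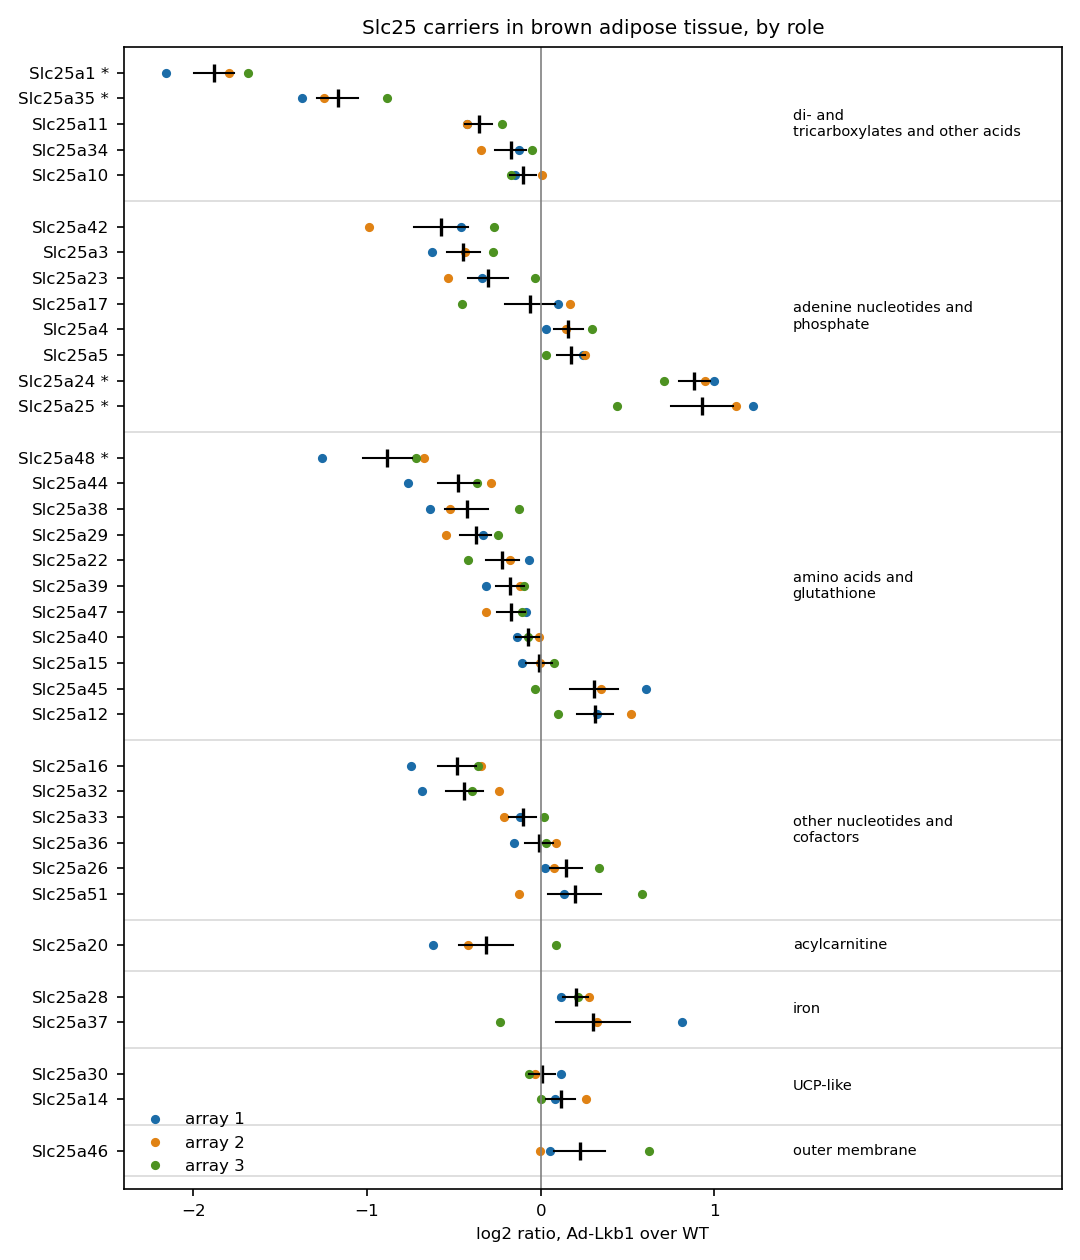
Log2 ratio (Ad-Lkb1 over WT, x axis) of measured Slc25 carriers, grouped by role down the page, with 1 point per array, a vertical tick and bar for the mean and its SE, and an asterisk for carriers past the threshold. Slc25a1 lies farthest to the left at -1.88 and Slc25a25 farthest to the right at 0.93, while most carriers lie near 0.

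The promoter windows of the citrate carrier gene Slc25a1, which fell, and of Slc25a24, which had the smaller spread of the carriers that rose, are shown because these genes passed the threshold in opposite directions and each has a single annotated window. Both are the 250 bases before the annotated start in RefSeq, build GRCm38.p6. The Slc25a1 window is chr16:17928220-17928469 on the minus strand, and the Slc25a24 window is chr3:109122899-109123148 on the plus strand. Capitals mark matches, on either strand, to the E-box CACGTG or the GC box GGGCGG.
Slc25a1: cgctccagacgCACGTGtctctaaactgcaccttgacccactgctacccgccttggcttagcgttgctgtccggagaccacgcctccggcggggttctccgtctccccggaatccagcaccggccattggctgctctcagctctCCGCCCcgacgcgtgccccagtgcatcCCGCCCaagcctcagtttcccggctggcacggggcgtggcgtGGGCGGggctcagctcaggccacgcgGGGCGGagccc
Slc25a24: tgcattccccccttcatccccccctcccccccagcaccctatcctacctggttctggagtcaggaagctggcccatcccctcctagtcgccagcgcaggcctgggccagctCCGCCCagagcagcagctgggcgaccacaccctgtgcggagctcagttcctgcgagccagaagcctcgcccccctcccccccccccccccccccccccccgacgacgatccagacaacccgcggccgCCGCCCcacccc
The Slc25a1 window held 1 E-box and 4 GC boxes, and the Slc25a24 window held 2 GC boxes and no E-box. An E-box was present in 6.02% of all 32851 windows of this length, in 8.12% of the windows of measured genes and in 6 of the 37 windows found for carriers (16.2%). A GC box was present in 32.7% of all windows, in 54.5% of those of measured genes and in 29 carrier windows (78.4%). The nuclear receptor half-site AAGGTCA, searched on both strands, was found in neither printed window. It was present in 4.08% of all windows, 3.2% of those of measured genes and 1 carrier window (2.7%). The cAMP response element half-site TGACG was also found in neither. It was present in 17.8% of all windows, 25% of those of measured genes and 9 carrier windows (24.3%). None of the marked matches overlap. RefSeq windows were matched for 29 of the 37 measured carriers (some with several windows) and for 4 of the 5 called ones.

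The carriers grouped under di- and tricarboxylates and other acids held the largest decreases of the family. The group name is a label, and not every member has a settled substrate. Of 5 measured, 2 fell (Slc25a1 and Slc25a35), none rose, and the group's median log2 ratio was -0.36. Slc25a1, the citrate carrier that exports citrate from the matrix in exchange for malate, had a log2 signal of 11.56, 12.02 and 11.87 in Ad-Lkb1 samples 1 to 3, against 13.72, 13.82 and 13.55 in WT samples. The groups were far apart, and the lowest WT sample lay well above the highest Ad-Lkb1 sample. The log2 ratio was -1.88 ± 0.25 (SD, n = 3 arrays, 95% interval -2.18 to -1.57), a 3.68-fold lower level in Ad-Lkb1 tissue (adjusted p = 0.0108). This was rank 10 from the bottom among all 19328 features. Slc25a35, a related carrier whose substrate in mammals is not settled, had a log2 signal of 9.58, 9.65 and 9.59 in Ad-Lkb1 samples, against 10.95, 10.90 and 10.48 in WT samples. Its log2 ratio was -1.17 ± 0.25 (SD, n = 3, adjusted p = 0.0185), and the Ad-Lkb1 samples were closely alike while the WT sample of array 3 was the lowest of its group. Without array 1 or without array 2 neither gene passed, although over every alternative run the log2 ratio stayed between -2.58 and -1.74 for Slc25a1 and between -1.87 and -1.07 for Slc25a35.

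The other carriers of this group did not pass. Slc25a11, the oxoglutarate carrier of the malate-aspartate shuttle, had a log2 signal of 12.46, 12.50 and 12.42 in Ad-Lkb1 samples, against 12.89, 12.93 and 12.64 in WT samples. Its levels did not overlap, yet the log2 ratio of -0.36 ± 0.12 (SD, n = 3) missed the threshold (adjusted p = 0.0668). Slc25a34, the closest relative of Slc25a35 in name, had log2 ratios of -0.12, -0.35 and -0.05 on arrays 1 to 3 (adjusted p = 0.279), with overlapping levels. Slc25a10, the dicarboxylate carrier for malate, succinate and phosphate, had a mean log2 ratio of -0.10 (adjusted p = 0.438). Its log2 signal was only 6.36 to 6.72, toward the lower end of what the arrays measured. The ratio was -0.42 with processed signals (adjusted p = 0.296) and -0.54 in the deposited value table (adjusted p = 0.169).

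**Figure D2:**
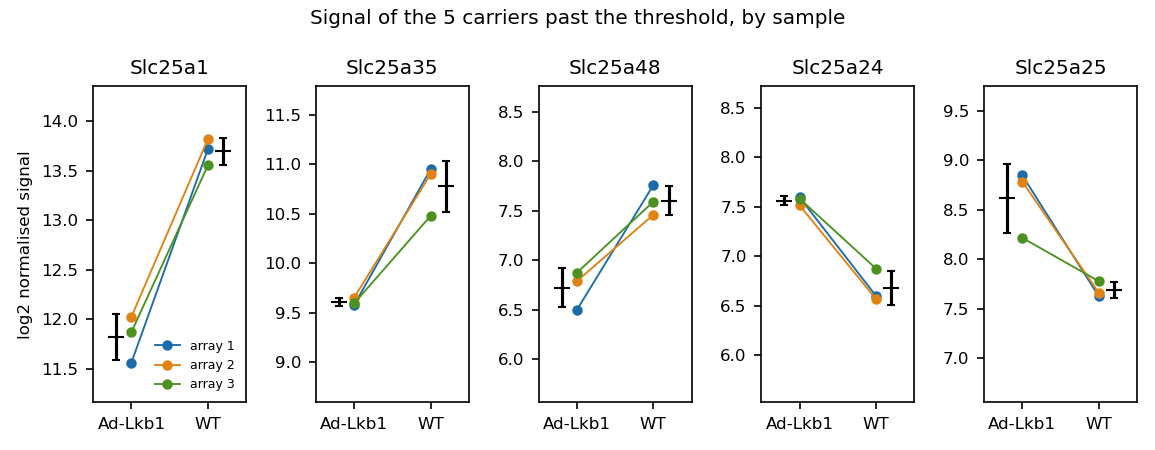
Normalized log2 signal (y axis) of the 5 carriers past the threshold in each sample, Ad-Lkb1 left and WT right in each panel, with a line joining the samples of an array and bars for the mean and SD of each genotype. No panel has overlapping groups, and the gap is widest for Slc25a1.

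Among the carriers of adenine nucleotides and phosphate, 2 of 8 rose and none fell, and the median log2 ratio was 0.048. Both that rose belong to the small set of calcium-regulated carriers that exchange ATP-Mg for phosphate and so set the adenine nucleotide content of the matrix. Slc25a24 had a log2 signal of 7.59, 7.51 and 7.58 in Ad-Lkb1 samples, against 6.60, 6.57 and 6.87 in WT samples. The 3 Ad-Lkb1 values were nearly equal, and the log2 ratio was 0.88 ± 0.15 (SD, n = 3, 1.85-fold higher, adjusted p = 0.0185). Slc25a25 had a log2 signal of 8.85, 8.78 and 8.21 in Ad-Lkb1 samples, against 7.62, 7.66 and 7.78 in WT samples. The groups did not overlap, but array 3 gave a log2 ratio of 0.44 where arrays 1 and 2 gave 1.22 and 1.12. The mean was 0.93 ± 0.43 (SD, n = 3, adjusted p = 0.0496), and it lost the threshold without any filter on dim probes (0.107), with the mean of both its probes (0.0573), with median centring (0.129) and in the deposited value table (0.0609), these being adjusted p-values. Neither gene passed without array 1 or without array 2. With median centring the log2 ratio was 0.49 for Slc25a24 and 0.35 for Slc25a25. Other settings gave larger ratios for both genes. For Slc25a24 the ratio was 1.30 with a normexp offset of 10 and 1.24 without background subtraction. It was 1.79 with processed signals and 1.67 in the deposited value table. Those of Slc25a25 were 1.16, 1.16, 1.32 and 1.20 in the same order, so Slc25a24 had the higher ratio there. Slc25a23, the third calcium-regulated carrier, had log2 ratios of -0.34, -0.54 and -0.04 on arrays 1 to 3 (adjusted p = 0.177).

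Both calcium-regulated carriers that rose had their smallest ratio on array 3, and so did the summed macrophage markers. This was not particular to them. Ucp1, Ucp2 and Ucp3 also had their smallest ratio there, and Slc25a1 and Slc25a35 their smallest in size, though Slc25a48 had its own on array 2. The macrophage difference was largest on array 2, and the ratios of Slc25a24 and Slc25a25 were largest on array 1. All 11 macrophage markers were measured, and 7 rose in Ad-Lkb1 tissue, led by Ctss with a log2 ratio of 3.50 (adjusted p = 0.0423) and Trem2 with 3.39 (adjusted p = 0.0105). The log2 of their summed signal was 13.90, 14.03 and 13.77 in Ad-Lkb1 samples, against 11.92, 11.69 and 12.79 in WT samples. The difference was thus 1.98, 2.34 and 0.98 on arrays 1 to 3, and the WT sample of array 3 was the highest of its group. Fibroblast markers also differed, with 4 of 5 called higher. Over all features 4.78% were called higher. The summed fibroblast differences were 0.61, 1.28 and 0.94. Dcn, the marker not called (adjusted p = 0.0898), entered this sum with the largest signal and had log2 ratios of 0.26, 1.34 and 0.86. The adipocyte list had 0 of 6 called in either direction, and its summed difference was 0.12, 0.13 and 0.39. Fabp4, with log2 ratios of 0.29, 0.41 and 0.75, entered that sum with the largest signal. By mean log2 ratio, 4 of the 6 adipocyte markers lay below 0, and the list median was -0.13. The part of these cell types in the carrier ratios was not tested. In whole tissue, fewer cells of a type and less RNA per cell cannot be told apart.

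The ADP/ATP carriers did not pass in either direction. Slc25a4, the heart and muscle form of the exchanger, had a log2 signal of 14.35, 14.31 and 14.30 in Ad-Lkb1 samples, against 14.32, 14.16 and 14.01 in WT samples. Its log2 ratio was 0.16 (95% interval -0.063 to 0.377, adjusted p = 0.294), and it turned to -0.54 (adjusted p = 0.071) with median centring. Slc25a5, the form common in dividing cells, had a log2 signal of 12.37, 12.21 and 12.12 in Ad-Lkb1 samples, against 12.12, 11.96 and 12.09 in WT samples. The groups just failed to overlap, and the log2 ratio of 0.18 (adjusted p = 0.237) turned to -0.53 (adjusted p = 0.0331) with median centring. Skeletal muscle, which is rich in Slc25a4, differed between the samples of every array: of 9 muscle markers 5 were measured, 0 were called, and the log2 of their summed signal was 9.61, 13.87 and 13.78 in Ad-Lkb1 samples, against 13.54, 11.21 and 9.18 in WT samples. The Slc25a4 ratio was lowest on array 1 and highest on array 3, as was the muscle sum, but it spanned only 0.27 where the muscle sum differed by -3.93, 2.66 and 4.60. The part of muscle in the Slc25a4 ratio was not tested.

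Slc25a3, the phosphate carrier that supplies ATP synthase and also brings copper into the matrix, had a log2 signal of 11.28, 11.22 and 11.48 in Ad-Lkb1 samples, against 11.90, 11.66 and 11.76 in WT samples. The groups did not overlap and both kept probes gave nearly the same log2 ratio (-0.44 and -0.43), but the gene did not pass (adjusted p = 0.0595). It passed with the mean of these probes (-0.44, adjusted p = 0.0375), without array 3 (-0.53, adjusted p = 0.0491) and with median centring (-1.16, adjusted p = 0.00965), and in no other of the 11 alternatives. Slc25a42, which brings coenzyme A into the matrix, had a log2 signal of 12.09, 12.01 and 11.94 in Ad-Lkb1 samples, against 12.55, 12.99 and 12.21 in WT samples. The Ad-Lkb1 samples were close together while the WT samples were spread widely, and the log2 ratio of -0.57 ± 0.37 (SD, n = 3) did not pass (adjusted p = 0.0972). Slc25a17, a peroxisomal member of the family, differed by array, with log2 ratios of 0.10, 0.17 and -0.45 (adjusted p = 0.826).

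Of the 11 carriers grouped under amino acids and glutathione, 1 fell (Slc25a48) and none rose, and the median log2 ratio was -0.18. The group name is a label and does not hold for every member. Slc25a48, described as an importer of choline into mitochondria, had a log2 signal of 6.50, 6.79 and 6.87 in Ad-Lkb1 samples, against 7.76, 7.46 and 7.59 in WT samples. The groups did not overlap, and array 1 had both the lowest Ad-Lkb1 sample and the highest WT sample. The log2 ratio was -0.88 ± 0.33 (SD, n = 3, adjusted p = 0.0374). It lost the threshold without array 1, without array 2, without any filter on dim probes (adjusted p = 0.0772), with the scanner software's processed signals (-1.81, adjusted p = 0.0981) and in the deposited value table (-1.94, adjusted p = 0.0989). In both of these last settings the ratio was larger in size.

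The other 10 carriers of this group ranged from -0.47 to 0.31 on the log2 scale. Slc25a44, the carrier of branched-chain amino acids described in brown fat mitochondria, had a log2 signal of 7.40, 7.82 and 7.55 in Ad-Lkb1 samples, against 8.16, 8.10 and 7.92 in WT samples. The groups did not overlap, but the gene did not pass (adjusted p = 0.0819), and its second probe gave a log2 ratio of only -0.095. Slc25a39, which with Slc25a40 brings glutathione into mitochondria, had a log2 signal of 9.84, 10.08 and 10.12 in Ad-Lkb1 samples, against 10.16, 10.20 and 10.21 in WT samples (log2 ratio -0.18, adjusted p = 0.236). Slc25a40 had a log2 ratio of -0.072 (adjusted p = 0.556). Slc25a38, the glycine carrier needed for haem synthesis, had log2 ratios of -0.64, -0.52 and -0.12 on arrays 1 to 3. It did not pass with all arrays (adjusted p = 0.105). It passed in 2 of 11 alternatives, without array 3 (-0.58, adjusted p = 0.0367) and with median centring (-1.12, adjusted p = 0.00997). Slc25a29, a carrier of basic amino acids, had levels that did not overlap and a mean log2 ratio of -0.37 (adjusted p = 0.0743). It passed in 4 of 11 alternatives, with a normexp offset of 10 (-0.65, adjusted p = 0.0449), with processed signals (-1.04, adjusted p = 0.0453), in the deposited value table (-1.17, adjusted p = 0.0488) and with median centring (-0.64, adjusted p = 0.0126). Slc25a22, a glutamate carrier, had -0.22 (adjusted p = 0.21). Slc25a12, the aspartate-glutamate carrier, had log2 ratios of 0.32, 0.52 and 0.10 on arrays 1 to 3, with levels that did not overlap and an adjusted p of 0.134. Slc25a47 had -0.17 (adjusted p = 0.25). Slc25a45 and the ornithine carrier Slc25a15, with means of 0.31 and -0.011, had mixed signs among the arrays. The log2 signal of Slc25a15 was only 6.10 to 6.29, close to the lower end of what the arrays measured.

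None of the 7 carriers of other nucleotides and cofactors passed. Slc25a51, the NAD carrier, had a log2 signal of 12.03, 12.04 and 12.13 in Ad-Lkb1 samples, against 11.90, 12.17 and 11.55 in WT samples. The groups overlapped (adjusted p = 0.462). Slc25a16 and the folate and FAD carrier Slc25a32 had the lowest ratios of the group at -0.48 (adjusted p = 0.0674) and -0.44 (adjusted p = 0.0795), and for both every Ad-Lkb1 sample lay below every WT sample. The pyrimidine nucleotide carriers Slc25a33 and Slc25a36 had -0.10 and -0.012. Slc25a26, the S-adenosylmethionine carrier, had 0.15, but its second probe gave -0.26. The probes of Slc25a33 also disagreed in sign, the second at 0.04.

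The mitoferrins, which bring iron into mitochondria, did not pass. Slc25a28, the form common outside red cell precursors, had a log2 signal of 10.22, 10.37 and 10.34 in Ad-Lkb1 samples, against 10.11, 10.10 and 10.12 in WT samples. The groups did not overlap, and the log2 ratio was 0.20 ± 0.083 (SD, n = 3, adjusted p = 0.156). With median centring it turned to -0.50 (adjusted p = 0.0395). Slc25a37, the form of red cell precursors, had a log2 signal of 8.68, 8.45 and 8.36 in Ad-Lkb1 samples, against 7.87, 8.13 and 8.60 in WT samples. Its log2 ratio of 0.81, 0.33 and -0.24 on arrays 1 to 3 changed sign (adjusted p = 0.419). Of 6 erythroid markers 4 were measured, none was called, and the log2 of their summed signal was 17.24, 17.22 and 17.38 in Ad-Lkb1 samples, against 16.22, 16.51 and 17.58 in WT samples. This difference of 1.02, 0.71 and -0.21 ran in the same order over the arrays as the ratio of the brighter Slc25a37 probe. So did that of Alas2, the first enzyme of haem synthesis in red cells, at 0.56, 0.32 and -0.82. The second kept probe of Slc25a37 gave 0.19, 0.25 and -0.05, largest on array 2, so its order differed. The part of red cells in the Slc25a37 ratio was not tested.

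**Figure D3:**
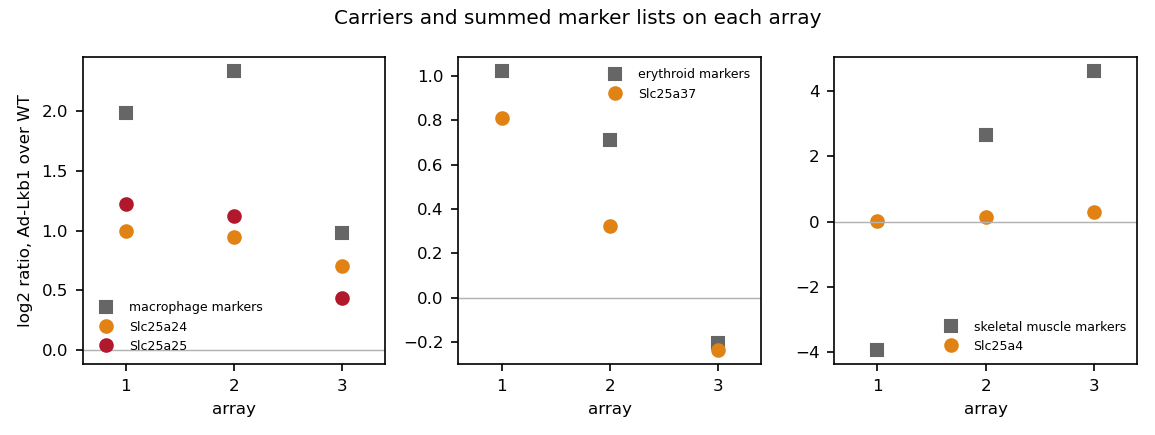
Log2 ratio or difference (Ad-Lkb1 over WT, y axis) on each of the 3 arrays (x axis) for single carriers (circles) and for the summed signal of the macrophage, erythroid and skeletal muscle marker lists (squares). The muscle sum moves between -3.93 and 4.60 while Slc25a4 stays between 0.03 and 0.30, and Slc25a37 and the erythroid sum are both lowest on array 3.

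The remaining carriers did not pass. Slc25a20, the carnitine-acylcarnitine carrier that brings fatty acids to the matrix for oxidation, had a log2 signal of 11.42, 11.67 and 11.89 in Ad-Lkb1 samples, against 12.04, 12.09 and 11.80 in WT samples. Arrays 1 and 2 gave a lower level in Ad-Lkb1 tissue and array 3 a slightly higher one (mean -0.32, adjusted p = 0.261). Slc25a46, an outer membrane protein of mitochondrial shape rather than a known transporter, had a log2 signal between 11.04 and 11.53 in Ad-Lkb1 samples and between 10.87 and 11.53 in WT samples. Its log2 ratio was 0.055, -0.0053 and 0.62 on arrays 1 to 3, so that the mean of 0.22 came almost wholly from array 3 (adjusted p = 0.391). The UCP relatives Slc25a14 and Slc25a30 had mean log2 ratios of 0.12 (0.08, 0.26 and 0.002 by array, adjusted p = 0.427) and 0.0065 (0.12, -0.03 and -0.06 by array, adjusted p = 0.969). Slc25a30 had a log2 signal between 6.14 and 6.23 in Ad-Lkb1 samples and between 6.12 and 6.20 in WT samples, close to the lower end of what the arrays measured.

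The uncoupling proteins, which belong to the carrier family but bear other symbols, were described beside these relatives. Ucp1, Ucp2 and Ucp3 all rose. Ucp2 had a log2 signal of 9.42, 9.40 and 9.28 in Ad-Lkb1 samples, against 7.62, 7.60 and 7.81 in WT samples (log2 ratio 1.69, adjusted p = 0.0105). Ucp3 had a log2 signal of 9.76, 9.58 and 9.29 in Ad-Lkb1 samples, against 8.45, 8.45 and 8.56 in WT samples (log2 ratio 1.06, adjusted p = 0.0251), though the mean over its probes gave 0.16 (adjusted p = 0.719) and median centring gave 0.40 (adjusted p = 0.051). Its call held in 5 of 11 alternatives, and those of Ucp1 and Ucp2 in 9. The carrier homologues of the outer membrane Mtch1 and Mtch2 had -0.11 and -0.17 and did not pass.

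Other genes that work with the carriers were described from lists by function. Of 39 measured, 8 rose and 7 fell (38.5% called, beside 8.7% of all features), with a median log2 ratio of 0.11. The lists were chosen with earlier results of these data known, so no conclusion is drawn from this share. The citrate export and use list, whose enzymes make citrate in the matrix or turn the exported citrate into fatty acids, had 4 of 6 lower and 1 higher, with a median of -0.98. Fasn, which builds palmitate, had a log2 signal of 12.75, 12.83 and 12.77 in Ad-Lkb1 samples, against 14.05, 14.22 and 14.26 in WT samples (log2 ratio -1.40, adjusted p = 0.0105). Acly, which splits citrate in the cytosol, had 14.62, 14.83 and 14.40 in Ad-Lkb1 samples, against 16.05, 15.84 and 15.64 in WT samples (log2 ratio -1.23, adjusted p = 0.0142). Both stood lower in every Ad-Lkb1 sample, as Slc25a1 did. Acaca, which makes malonyl-CoA, and Me1, which makes NADPH from malate, also fell, by 1.16 (adjusted p = 0.0119) and 0.79 (adjusted p = 0.0229) on the log2 scale. Citrate synthase, Cs, rose instead, with a log2 ratio of 0.63 (adjusted p = 0.0394) that became -0.055 with median centring. The calls of Fasn, Acly and Acaca held in 9 of 11 alternatives, that of Me1 in 7 and that of Cs in 3, the last being lost also without the filter on dim probes, under other background corrections, with processed signals (0.42, adjusted p = 0.231) and in the deposited value table (0.30, adjusted p = 0.246).

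The malate-aspartate and glycerol phosphate shuttle enzymes, which carry reducing equivalents across the membrane, had 2 of 6 higher and 1 lower, with a median of 0.54. Got1 rose with a log2 ratio of 1.19 (adjusted p = 0.0233) and Mdh2 with 0.78 (adjusted p = 0.0296). With median centring these were 0.48 (adjusted p = 0.114) and 0.10 (adjusted p = 0.675). Gpd2 fell by 0.45 on the log2 scale (adjusted p = 0.0384). The calls held in 7 of 11 alternatives for Got1 and in 5 for Mdh2 and Gpd2. Gpd2 was lost under other background corrections, with processed signals (-0.30, adjusted p = 0.369) and in the deposited value table (adjusted p = 0.144). Beside them, the shuttle's carriers Slc25a11 and Slc25a12 had -0.36 and 0.31 and did not pass. In the carnitine shuttle 1 of 5 rose: Cpt1a, the liver form of the enzyme upstream of Slc25a20, had a log2 ratio of 1.01 (adjusted p = 0.0328), a call that held in 7 of 11 alternatives. Crat at -0.63 (adjusted p = 0.0509) and the plasma membrane carnitine transporter Slc22a5 at -0.58 (adjusted p = 0.0542) missed the threshold.

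Among the pyruvate carrier subunits and the sideroflexins, 1 of 7 rose and 1 fell. Sfxn3 had a log2 ratio of 0.49 (adjusted p = 0.0347), which became -0.015 with median centring, and Sfxn5 one of -0.68 (adjusted p = 0.0242). The call of Sfxn3 held in 5 of 11 alternatives and that of Sfxn5 in 7. The pyruvate carrier genes Mpc1 and Mpc2 had -0.023 and -0.10. Of 7 genes that insert carriers into the inner membrane, 1 fell: Timm22, the core of the insertion complex, had a log2 ratio of -0.41 (adjusted p = 0.0459). This call held in 3 of 11 alternatives, and was lost also without the filter on dim probes (0.0515), without array 3 (0.074), under other background corrections, with processed signals (0.422) and in the deposited value table (0.157), these being adjusted p-values. Timm10, a chaperone of the space between the membranes, had 0.33 (adjusted p = 0.0542), which turned to -0.37 with median centring. None of the outer membrane channels Vdac1, Vdac2 and Vdac3 passed, at -0.36, -0.022 and 0.013. All of these partner calls were also lost without array 1 or without array 2, since no feature passed there.

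**Figure D4:**
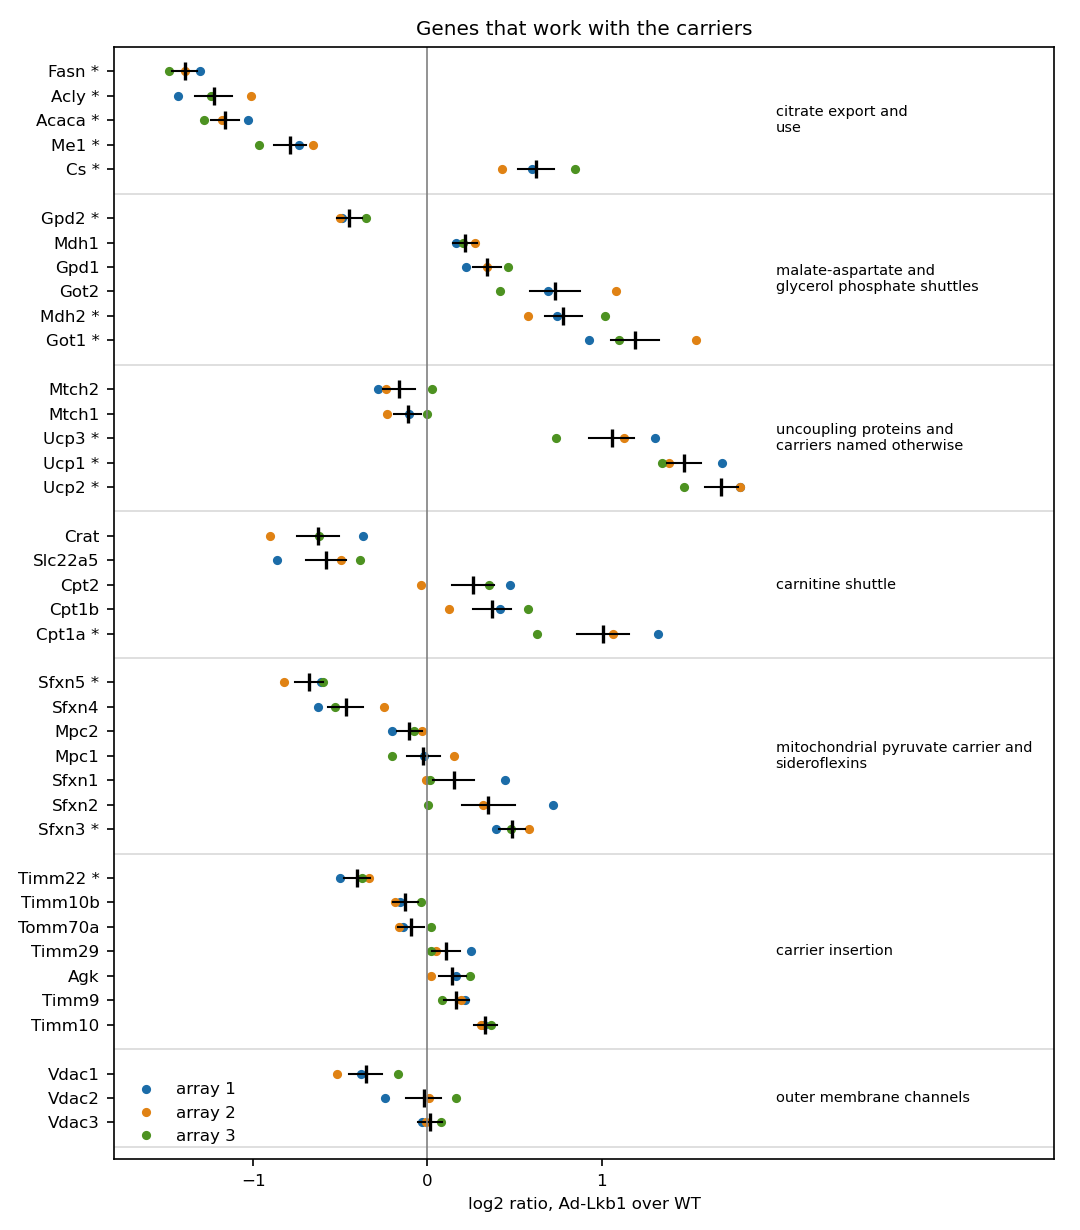
Log2 ratio (Ad-Lkb1 over WT, x axis) of measured partner genes by function, with 1 point per array, a vertical tick and bar for the mean and its SE, and an asterisk for genes past the threshold. Fasn, Acly and Acaca lie to the left beyond -1, and Ucp1, Ucp2, Ucp3, Got1 and Cpt1a lie to the right beyond 1.

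**Figure D5:**
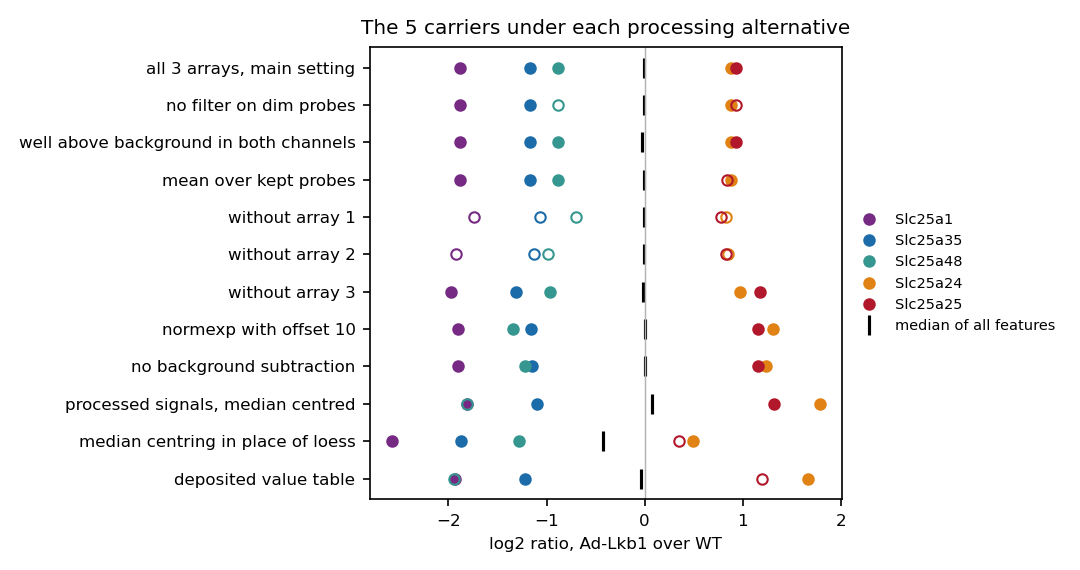
Log2 ratio (Ad-Lkb1 over WT, x axis) of the 5 called carriers with all arrays and the main processing and under each alternative, filled where the adjusted p is under 0.05, with a tick at the median of all features. Slc25a1 stays between -2.58 and -1.74 and Slc25a24 between 0.49 and 1.79, and no called carrier changes sign.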

How the data were processed

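Median intensity of spot and background in both channels was read from the deposited scanner files, per the file headers. These also give the authors' log10 ratio (red to green). The software was Agilent Feature Extraction, which the submitters' processing notes give as version 11.5. The deposited value table matched that log10 ratio on each array, so scale and direction were known. Its column medians were 0, but 26.8% to 27.8% of its values for non-control features were exactly 0. The medians therefore do not show how the ratios were centred.

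Normalization was done in R 4.3.3 with limma 3.58.1. It used normexp (offset 50) and loess within arrays, with control spots at weight 0. Outlier-flagged spots and 3 empty or incomplete features were left out and spots of a probe were averaged. Of 55671 probes 25031 met the background criterion, which left 19328 genes and unnamed features. RefSeq accessions were matched for 28023 of 29792 probes. Levels are channel signals after loess and Aquantile, on the log2 scale. They are not compared between genes.

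The fit was limma's lmFit and eBayes on the log2 ratio, intercept only, with Benjamini-Hochberg adjustment. It was also run on simulated data, with changes placed only in bright probes and no dye bias of single genes. That run therefore does not cover dim carriers or the shared dye orientation. The array design pairs the samples, so no further block was used. P-values, the SE given for Stk11 and the intervals use limma's moderated variance. It combines a gene's own spread over the 3 arrays with a value estimated from all features. They are therefore not measures of that gene's spread alone, which the SD gives. For Stk11 the SD was 0.056 and the moderated SE 0.0687. The samples of the 3 arrays are biological replicates per the design text. In Ad-Lkb1 samples 47.7% to 51.3% of features were well above background and in WT samples 46.7% to 46.8%, with 0 saturated spots. The 3 arrays limit the precision.

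The members and all gene lists were chosen with earlier results of these data known. Values by array were given for members past the threshold, with an absolute log2 ratio of at least 1, or with mixed signs and a span of at least 1.5, and for the brightest others of each role group. In the partner lists, called genes and those with the smallest p were named. The alternatives were other background corrections, processed signals, median centring, other filters and probe rules, the deposited table, and each array left out. A slide block could not be fitted, with 1 slide and 1 scan in all. Protein sequences were not used here. The values of 1 carrier and 1 partner gene are not reported here, though both enter the counts and medians.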

Additional observations from a re-analysis of the deposited data

How the results depend on the processing

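Over 406 pairs of a carrier and an alternative, 381 kept their direction and 25 turned sign, 10 of them with median centring. Each ratio pairs 1 Ad-Lkb1 with 1 WT sample, so the fit was paired by array in every setting. The slide block was not run because there was 1 slide. The 2 carriers called higher became 1 without a dim-probe filter, with the mean over kept probes, with median centring and in the deposited table, and 0 to 2 with an array left out. The 3 called lower became 25 with median centring and 0 to 5 with an array left out. Over all features, the 923 higher calls became 541 without the filter, 389 with median centring, 526 in the deposited table and 0 to 1332 with an array left out. The 758 lower calls became 492 without the filter, 230 with processed signals, 9708 with median centring, 280 in the deposited table and 0 to 720 with an array left out. The partners' 8 higher calls became 4 without the filter, 5 with processed signals, 3 with median centring, 3 in the deposited table and 0 to 8 with an array left out. Their 7 lower calls became 3 with processed signals, 23 with median centring, 3 in the deposited table and 0 to 7 with an array left out. The family median of -0.10 became -0.022 without the filter, -0.020 with processed signals, -0.57 with median centring and -0.14 in the deposited table. Stk11 lay between -1.22 and -1.17 with an array left out (adjusted p = 0.123 without array 1 and 0.0878 without array 2). Under median centring, the carriers that turned sign and passed the threshold there were Slc25a5 (-0.53), Slc25a28 (-0.50) and Slc25a26 (-0.54). The partner genes called with loess that turned sign were Cs (-0.055) and Sfxn3 (-0.015), neither past the threshold. Slc25a4 (-0.54), Slc25a51 (-0.51), Slc25a46 (-0.48), Slc25a14 (-0.38), Slc25a37 (-0.30), Slc25a12 (-0.061), Slc25a30 (-0.033) and Timm10 (-0.37) also turned, past the threshold in neither setting. It moved the median of all features to -0.42. The cause of these changes was not tested. Signal over background limits the dimmest members, since the median Ad-Lkb1 signal was 21 to 23 against a background of 17 and the median WT signal 51 to 53.5 against 43 to 44.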
